A study of Mus musculus with 20 samples.

Results

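Chaperonins are large ring-shaped machines that enclose unfolded proteins and let them fold in isolation. The genes described here encode both chaperonins of the mouse cell, namely the 8 subunits of the cytosolic chaperonin CCT (also called TRiC), which are Tcp1, Cct2, Cct3, Cct4, Cct5, Cct6a, Cct7 and Cct8, and the mitochondrial pair Hspd1, which encodes HSP60, and Hspe1, which encodes its lid HSP10. They were selected by symbol, with earlier results of these data known, and are 10 of the 50559 genes in the count tables. All 10 were among the 14333 genes that were expressed highly enough to be tested. In GRCm39 the genes lie at chr17:13134588-13163066 (Tcp1, plus strand), chr10:116886897-116899744 (Cct2, minus), chr3:88204289-88230423 (Cct3, plus), chr11:22940379-22956236 (Cct4, plus), chr15:31588834-31601959 (Cct5, minus), chr5:129864049-129875406 (Cct6a, plus), chr6:85428439-85445708 (Cct7, plus), chr16:87279168-87292801 (Cct8, minus), chr1:55116989-55171038 (Hspd1, minus) and chr1:55127260-55130476 (Hspe1, plus). Each CCT ring holds a single copy of every subunit, and the complex is best known for folding actin and tubulin, which it receives in part from the co-chaperone prefoldin. HSP60 and HSP10 fold proteins that have been imported into the mitochondrial matrix.

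RNA was sequenced from 20 mice, 5 in each of 4 groups, to compare liver tumors made with the hormone FGF19 or with Aldafermin, an engineered analog of it. All were wild-type C57BL/6J females, injected at 6 to 8 weeks of age by hydrodynamic gene transfer, in which a large volume pushed into the tail vein carries plasmids into a fraction of hepatocytes, together with a Sleeping Beauty transposase that inserts the transgenes. The Aldafermin+MYC and FGF19+MYC tumors carried the hormone and MYC, the latter under the ubiquitous EF1a promoter, and the sgTrp53+MYC tumors carried MYC and a CRISPR plasmid against Trp53, which encodes the tumor suppressor p53. Each tumor came from a different mouse. The Liver samples are called non-treated in the labels, whereas the methods describe control livers given a plasmid for a red fluorescent protein. MYC was part of every tumor and of no liver, so that MYC, tumor growth and hormone or guide cannot be told apart in a comparison with liver.

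Gene counts summed to 18004977 to 44427184 per library in the first table and to 54042455 to 66354724 in the second. The second held the sgTrp53+MYC libraries and no others, so table and tumor kind cannot be told apart for them. Reads not aligned were 5.34% to 6.82% in these libraries and 15.3% to 34.0% in the first table. Reads ambiguous between genes were 11.1% to 14.6% against 3.03% to 6.30%, and the part of this in the results was not tested. Trp53 itself lay at 18.7 to 79.9 CPM, which are counts scaled to a common library size with TMM factors, in sgTrp53+MYC tumors, below the 90.8 to 176 CPM of Aldafermin+MYC and the 110 to 155 CPM of FGF19+MYC tumors, and at 28.8 to 36.4 CPM in livers. The mouse Myc row averaged 3.06 to 4.33 CPM in the tumor groups and 7.45 CPM in livers. Reads were mapped to the mouse genome, and how far this row counts MYC from the plasmid was not tested. It therefore gives no level of the MYC driver. The summed level of 8 hepatocyte markers was 8120 to 22192 CPM in Aldafermin+MYC, 9060 to 29411 CPM in FGF19+MYC and 3296 to 10839 CPM in sgTrp53+MYC tumors against 184599 to 235538 CPM in livers, and that of 5 proliferation markers was 647 to 1081 CPM over the 15 tumors against 8.01 to 28.7 CPM in livers, with no marker of either list at 0 throughout. The part of these shifts in cell makeup in the results below was not tested, and in bulk tissue fewer cells of a type and less RNA per cell cannot be told apart. Among 1432 transcripts shorter than 1000 bases, the median level stood apart in 3 libraries, Aldafermin+MYC 5, FGF19+MYC 1 and sgTrp53+MYC 1, at 0.56, 0.72 and 0.82 above the mean of their group on the log2 scale, whereas the other libraries lay between -0.40 and 0.25; results that rest on these 3 libraries are given with and without them.

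All 8 CCT subunits were higher in each kind of tumor than in liver. Their median log2 fold change was 1.92 in Aldafermin+MYC, 1.86 in FGF19+MYC and 1.97 in sgTrp53+MYC tumors, whereas the median of all genes tested was 0.13, 0.06 and 0.07. The rise was largest for Cct3 and smallest for Cct4 in all 3 kinds, and no subunit passed the test between kinds of tumor. The smallest adjusted p among the 10 chaperonin genes was 9.79e-11 and the largest 0.00191 over the comparisons with liver (edgeR quasi-likelihood test, Benjamini-Hochberg over all genes tested). In the same tests 38.4% of all genes were called higher in Aldafermin+MYC, 36.9% in FGF19+MYC and 36.9% in sgTrp53+MYC tumors than in liver, against 10 of the 10 chaperonin genes in each.

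Tcp1, the founding subunit of the complex, was at 149, 160, 167, 158 and 157 CPM in the 5 livers. In tumors it was at 695, 583, 477, 549 and 803 CPM (Aldafermin+MYC), 766, 557, 636, 670 and 494 CPM (FGF19+MYC) and 823, 632, 507, 646 and 729 CPM (sgTrp53+MYC). The lowest tumor thus lay far above the highest liver, and the 3 tumor groups overlapped throughout. The log2 fold change against liver was 1.97 ± 0.17 (SE, n = 5 per group), 1.98 ± 0.17 and 2.08 ± 0.17, or 3.93-fold, 3.95-fold and 4.22-fold (edgeR quasi-likelihood test, adjusted p = 4.16e-09, 3.85e-09 and 2.02e-09).

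Cct3, the gamma subunit, was the member with the largest rise. It was at 112, 123, 117, 137 and 104 CPM in livers. In tumors it reached 756, 590, 497, 508 and 861 CPM (Aldafermin+MYC), 664, 583, 561, 583 and 512 CPM (FGF19+MYC) and 735, 534, 437, 517 and 580 CPM (sgTrp53+MYC). No tumor approached the livers, and the highest value of each tumor group came from 1 of the 3 libraries with high short transcripts. The fold over liver was 5.42, 4.90 and 4.73, a log2 fold change of 2.44 ± 0.18, 2.29 ± 0.18 and 2.24 ± 0.18 (SE; edgeR quasi-likelihood test, adjusted p = 4.78e-10, 9.92e-10 and 1.26e-09), and only 9.48% of all genes had a larger log2 fold change in Aldafermin+MYC tumors.

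Cct4, the delta subunit, rose least. Its livers were at 143, 154, 145, 156 and 173 CPM. Its tumors were at 402, 347, 281, 302 and 541 CPM (Aldafermin+MYC), 511, 339, 392, 404 and 297 CPM (FGF19+MYC) and 593, 356, 281, 339 and 289 CPM (sgTrp53+MYC). The groups still did not overlap with liver, but the spread among tumors was wide, and the highest value of each tumor group again belonged to a library with high short transcripts. The fold over liver was 2.43, 2.52 and 2.41, with log2 fold changes of 1.28 ± 0.22, 1.33 ± 0.22 and 1.27 ± 0.22 (SE; edgeR quasi-likelihood test, adjusted p = 3.12e-05, 2.01e-05 and 3.31e-05).

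**Figure D1:**
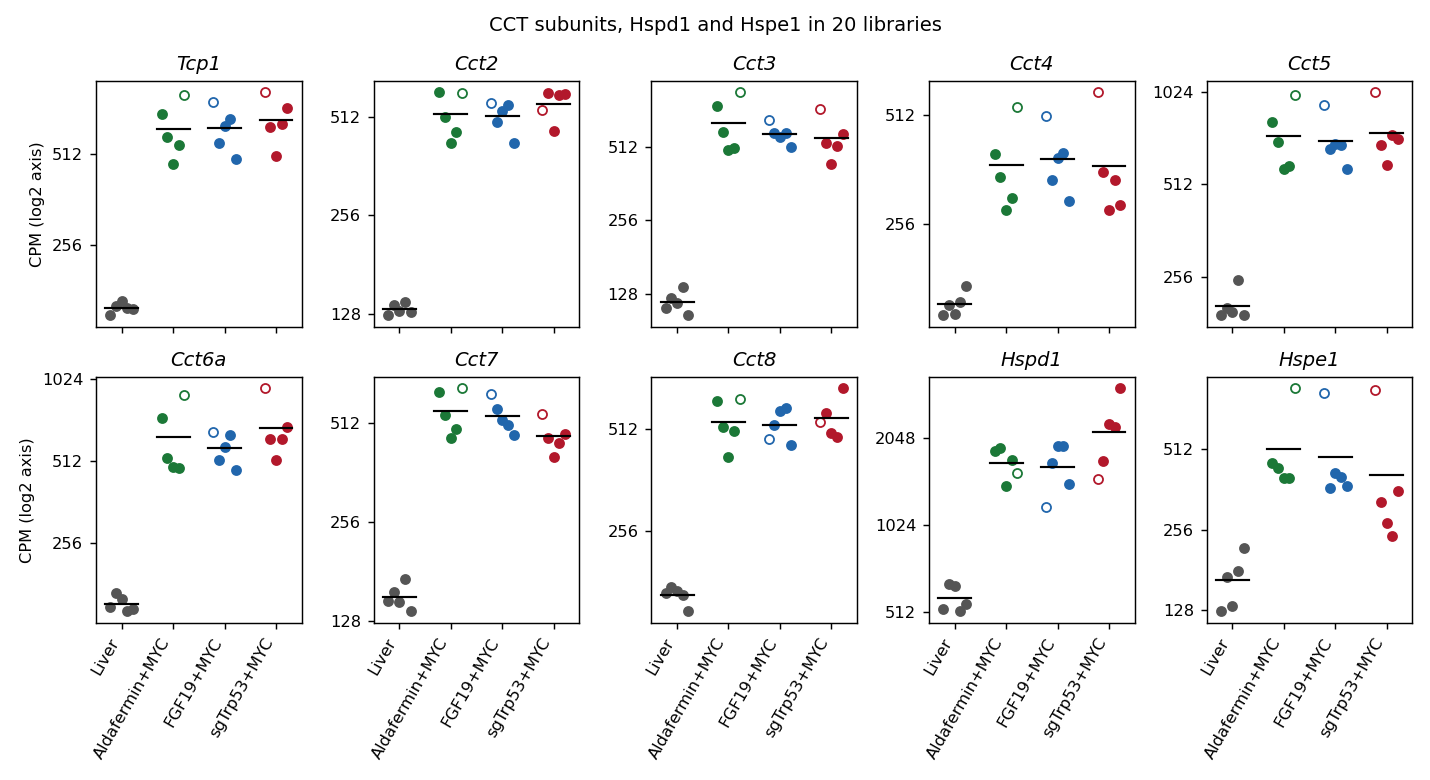
Level of each chaperonin gene in CPM (log2 axis) in 5 libraries of each of 4 groups, with bars at the group means and open circles for Aldafermin+MYC 5, FGF19+MYC 1 and sgTrp53+MYC 1, the 3 libraries with high short transcripts. Every tumor lies above every liver for all 10 genes, and the 3 open circles stand apart for Hspe1 at 867, 833 and 851 CPM.

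The other 5 subunits lay between these, each with all of its 15 tumors above all 5 livers. Cct5, the epsilon subunit, ranged from 192 to 250.01 CPM in livers and from 573 to 1020 CPM in tumors, and was 3.56-fold, 3.44-fold and 3.63-fold higher in Aldafermin+MYC, FGF19+MYC and sgTrp53+MYC tumors. Cct6a, the zeta subunit, ranged from 144 to 169 CPM in livers and from 475 to 948 CPM in tumors, at 4.06-fold, 3.72-fold and 4.39-fold. Cct2, the beta subunit, was within 126 to 139 CPM in livers and 427 to 611 CPM in tumors, at 3.97-fold, 3.91-fold and 4.25-fold. For all 3 the fold was lowest in FGF19+MYC and highest in sgTrp53+MYC tumors, although none passed the test between these kinds. Without the 3 libraries high in short transcripts the fold of these genes stayed highest in sgTrp53+MYC tumors. It was then lowest in Aldafermin+MYC tumors, at log2 fold changes of 1.668, 1.831 and 1.902 against 1.669, 1.848 and 1.936 in FGF19+MYC tumors. Cct7, the eta subunit, went from 137 to 172 CPM in livers to 402 to 651 CPM in tumors, at 3.65-fold, 3.53-fold and 3.06-fold. Cct8, the theta subunit, went from 149 to 176 CPM to 422 to 674 CPM, at 3.23-fold, 3.16-fold and 3.31-fold.

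**Figure D2:**
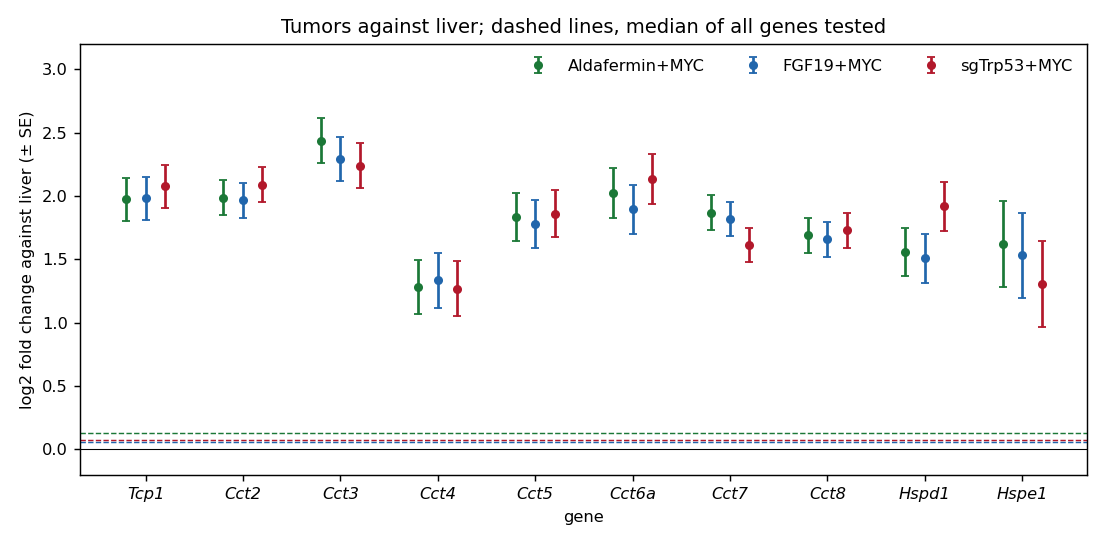
Log2 fold change of each chaperonin gene against liver, with its SE, in the 3 kinds of tumor (5 libraries per group), and dashed lines at the median of all genes tested, 0.13, 0.06 and 0.07. Every gene lies above 1.2 on the log2 scale, with Cct3 highest and Cct4 lowest among the CCT subunits.

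The 10 of 10 members without overlap between tumor and liver stood beside 31.3%, 32.4% and 28.8% of all genes whose Aldafermin+MYC, FGF19+MYC and sgTrp53+MYC libraries all lay above all livers. When the 3 libraries with high short transcripts were left out, all 10 genes were still called and still did not overlap with liver, and the median of the 8 subunits was 1.80 in Aldafermin+MYC, 1.81 in FGF19+MYC and 1.89 in sgTrp53+MYC tumors. The scale of these changes depends on the size factors: livers had TMM factors of 0.615 to 0.682 and tumors of 0.997 to 1.31. With library totals alone the median of all genes against liver moved to 0.97, 0.91 and 0.95, the calls in the higher direction rose from 54.6% to 78.2%, from 52.9% to 77.3% and from 52.8% to 77.9%, and the CCT median became 2.76, 2.69 and 2.84, so that it stood above the median of all genes by 1.78, 1.79 and 1.88 compared with 1.79, 1.79 and 1.90 before.

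The subunits work at equal copy number, so their levels were also set side by side per length of coding sequence, on which the 8 subunits are nearly alike (1593 to 1668 bases). In livers Cct5 was the highest at 127 ± 15.2 CPM per kb (SD, n = 5) and Cct3 the lowest at 72.5 ± 7.56 CPM per kb, a ratio of 1.76. In tumors Cct5 was again highest, at 454 ± 109, 437 ± 81.5 and 463 ± 99.4 CPM per kb in Aldafermin+MYC, FGF19+MYC and sgTrp53+MYC, and Cct4 was lowest, at 232 ± 64.2, 240 ± 49.9 and 230 ± 79.2 CPM per kb, a ratio of 1.96, 1.82 and 2.01. Most neighbors in these orders differed by less than the larger of their SDs: the gap was wider at 3 of 7 steps in livers (Cct5 to Cct8, Cct7 to Cct2 and Cct2 to Cct3), and at 1 of 7 in each kind of tumor, namely Cct8 to Cct4 in Aldafermin+MYC and FGF19+MYC and Cct8 to Cct7 in sgTrp53+MYC. The canonical GENCODE transcripts of the subunits run from 1967 to 4735 bases, and per length of these the order was another one, with Cct3 or Cct2 highest and Cct4 lowest in every group, so no rank was read beyond the coding scale.

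Between kinds of tumor no CCT subunit passed the test. The difference between Aldafermin+MYC and FGF19+MYC tumors ranged from -0.05 for Cct4 to 0.15 for Cct3 on the log2 scale, against a median of 0.02 for all genes. None of the 10 chaperonin genes was called, but neither was any other gene, 0% of those tested by edgeR's quasi-likelihood test, with 7.31% at an unadjusted p under 0.05 and 0 of the 10 among them. The likelihood ratio test of edgeR called 59 genes and DESeq2 called 96, again without any of the 10. Against sgTrp53+MYC tumors, where 17.7% and 15.8% of all genes were called, the subunits ranged from -0.11 to 0.26 in Aldafermin+MYC and from -0.24 to 0.21 in FGF19+MYC tumors, and 0 of 8 were called. At an unadjusted p under 0.05, which 32.2% and 30.6% of all genes reached in these comparisons, 0 and 1 of the 10 chaperonin genes passed, the latter being Hspd1. The largest CCT differences were those of Cct7, at 0.26 higher in Aldafermin+MYC (95% interval -0.02 to 0.53, edgeR quasi-likelihood test, adjusted p = 0.192), and Cct6a, at -0.24 in FGF19+MYC (95% interval -0.63 to 0.15, adjusted p = 0.412). Over all 24 differences the intervals reached from -0.63 (Cct6a) to 0.55 (Cct3).

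Within groups the subunits rose and fell together. After the mean of each group was removed from the log2 CPM of the 20 libraries, Pearson's r had a median of 0.81 over the 28 pairs of subunits, from 0.28 for Cct4 with Cct8 to 0.96 for Cct3 with Cct7. Aldafermin+MYC 5 and FGF19+MYC 1 held the highest value of their group for 7 of 8 subunits each, and sgTrp53+MYC 1 for 6 of 8, while FGF19+MYC 5 held the lowest for all 8 and Aldafermin+MYC 3 and sgTrp53+MYC 3 for 7 of 8 each. Without the 3 libraries high in short transcripts the median over pairs was 0.78, with a range of 0.47 to 0.95. These are descriptions: all genes of a library share its size factor and its RNA. The library FGF19+MYC 5 also had the highest summed hepatocyte marker level of its group, 29411 CPM, and the lowest proliferation marker level, 647 CPM, and the part of either in its CCT level was not tested.

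**Figure D3:**
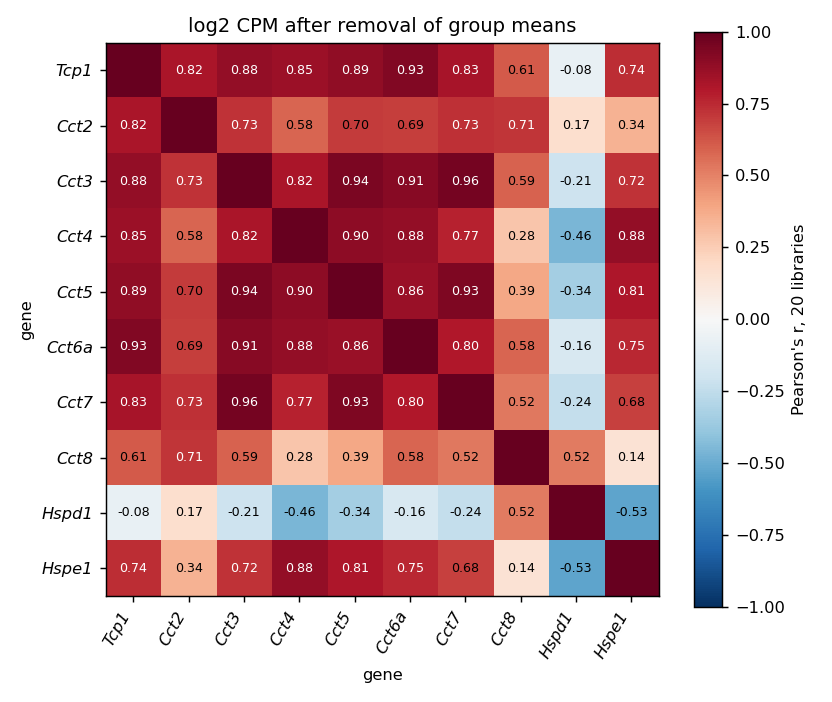
Pearson's r between chaperonin genes over 20 libraries, on log2 CPM after the mean of each of the 4 groups was removed. The CCT block has a median of 0.81, Hspe1 follows it with a median of 0.73, and Hspd1 has a median of -0.18 with the subunits and -0.53 with Hspe1, values that change sign when the 3 libraries with high short transcripts are left out.

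The promoters of the subunits, read from GRCm39 as 250 bases before to 50 bases after the start of the GENCODE canonical transcript, were searched for a few known motifs. The letters CACGTG, an E-box of the kind that MYC and MAX can bind, were in 7.81% of 21770 promoters of protein-coding genes and in 0 of the 10 chaperonin promoters. GGGCGG, the GC box, was in 42.5% of all promoters and in 7 of 10 (Tcp1, Cct2, Cct4, Cct7, Cct8, Hspd1 and Hspe1), and CCAAT in 39.9% of all and in 4 of 10 (Tcp1, Cct6a, Cct7 and Hspd1). A palindrome of 10 bases, TCTCG followed by its reverse complement CGAGA, was noticed in the sequences before it was counted. It was in 0.574% of all and in 2 of 10, Cct5 and Cct6a, and the NRF1 motif, GCGCA followed by TGCGC, was in 1.16% of all and in Cct5 alone. Both strands were searched, the heat shock motifs given below overlap each other, and a match is only a match of letters. The windows of Hspd1 and Hspe1 overlap, so a match in their shared stretch counts for both genes. The stretches that carry the palindrome, and the stretch of Cct7 that carries CCAAT 3 times on the opposite strand, are shown with these letters in capitals, each on the strand of its gene. Cct6a is shown from chr5:129863982-129864048 on the plus strand, ahead of its first annotated start, Cct5 from chr15:31601918-31601947 on the minus strand, 13 to 42 bases downstream of its start, and Cct7 from chr6:85428280-85428409 on the plus strand, upstream of its start.
Cct6a: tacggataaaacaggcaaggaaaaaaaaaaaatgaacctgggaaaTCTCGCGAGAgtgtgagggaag
Cct5: ttctgcgtccTCTCGCGAGAgggaggtgcg
Cct7: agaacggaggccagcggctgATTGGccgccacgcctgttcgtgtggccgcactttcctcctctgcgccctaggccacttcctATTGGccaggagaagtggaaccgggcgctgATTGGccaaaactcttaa

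The mitochondrial pair also rose in every kind of tumor. Hspd1 was 2.95-fold, 2.85-fold and 3.78-fold higher in Aldafermin+MYC, FGF19+MYC and sgTrp53+MYC tumors than in liver, and Hspe1 3.08-fold, 2.89-fold and 2.47-fold. Neither gene was called between kinds of tumor. Unlike the CCT subunits, the partners did not follow each other from library to library, and 3 libraries stood far above the rest for Hspe1.

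Hspd1 and Hspe1 lie head to head on chromosome 1 of GRCm39, Hspd1 on the minus strand with its canonical start at position 55127183 and Hspe1 on the plus strand with its start at 55127291, so that the starts lie 108 bases apart. Some longer annotated Hspd1 transcripts begin further away, as the gene ends at 55171038. The stretch from the Hspd1 start up to the first annotated start of Hspe1, chr1:55127184-55127259, is shown on the plus strand because it holds letters of the heat shock element, with matches to TTCNNGAA and GAANNTTC in capitals.
Hspd1-Hspe1: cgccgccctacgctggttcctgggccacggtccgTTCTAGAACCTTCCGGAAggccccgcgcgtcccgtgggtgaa
The capitals are 3 overlapping matches, TTCTAGAA, GAACCTTC and TTCCGGAA, of the kind that heat shock factor HSF1 can bind. TTCNNGAA was in 7.98% and GAANNTTC in 7.41% of all promoters, and among the CCT promoters only that of Cct5 held either, as TTCCAGAA.

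Hspd1, the ring subunit, had more counts than any other of the 10 genes in every library. Its livers were at 524, 639, 632, 516 and 547 CPM. Its tumors were at 1855, 1900, 1395, 1723 and 1549 CPM (Aldafermin+MYC), 1183, 1677, 1924, 1926 and 1422 CPM (FGF19+MYC) and 1485, 1711, 2297, 2249 and 3054 CPM (sgTrp53+MYC). All tumors were above all livers, and 3 of the 5 sgTrp53+MYC tumors were above every tumor of the other kinds while 2 lay among them. The log2 fold change against liver was 1.56 ± 0.19, 1.51 ± 0.19 and 1.92 ± 0.19 (SE; edgeR quasi-likelihood test, adjusted p = 6.72e-07, 1.02e-06 and 4.55e-08). The difference of -0.41 between FGF19+MYC and sgTrp53+MYC tumors (95% interval -0.80 to -0.02) had an unadjusted p of 0.0424 in the edgeR fit and did not pass the adjustment (adjusted p = 0.146), and that of -0.36 between Aldafermin+MYC and sgTrp53+MYC tumors (95% interval -0.75 to 0.03) did not either (adjusted p = 0.198). Without the 3 libraries high in short transcripts these became -0.45 (adjusted p = 0.0651) and -0.50, which passed (adjusted p = 0.0406, edgeR quasi-likelihood test). Any difference with sgTrp53+MYC tumors is also one between the count tables.

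Hspe1, the lid, was at 127, 171, 133, 180 and 218 CPM in livers. It was at 457, 435, 400.0, 399 and 867 CPM in Aldafermin+MYC, at 833, 368, 417, 404 and 374 CPM in FGF19+MYC and at 851, 327, 272, 243 and 358 CPM in sgTrp53+MYC tumors. In each tumor group 1 library stood far above the other 4, and it was each time the library with high short transcripts; the canonical transcript of Hspe1 has 774 bases, the shortest of the 10, and the part of transcript length in its level was not tested. The log2 fold change against liver was 1.63 ± 0.34, 1.53 ± 0.34 and 1.31 ± 0.34 (SE; edgeR quasi-likelihood test, adjusted p = 0.000294, 0.000515 and 0.00191). Leaving out Aldafermin+MYC 5 brought the first to 1.42, leaving out FGF19+MYC 1 the second to 1.24 and leaving out sgTrp53+MYC 1 the third to 0.86, and all were still called. Between kinds of tumor the difference was 0.09 for Aldafermin+MYC against FGF19+MYC, 0.32 for Aldafermin+MYC against sgTrp53+MYC and 0.22 for FGF19+MYC against sgTrp53+MYC, with 95% intervals from -0.60 to 0.79, -0.37 to 1.01 and -0.47 to 0.92, the widest of the 10 genes.

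**Figure D4:**
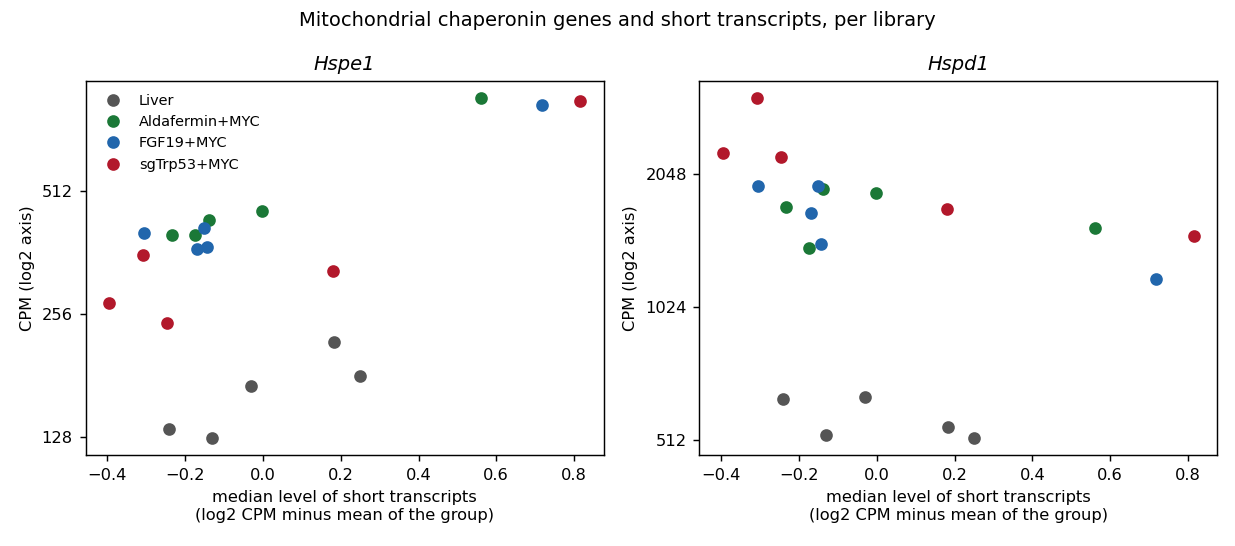
Hspe1 (left) and Hspd1 (right) in CPM (log2 axis) against the median level of 1432 short transcripts, as log2 CPM relative to the mean of the group, 1 point per library. The 3 tumors with short transcripts at 0.56, 0.72 and 0.82 have Hspe1 at 867, 833 and 851 CPM, above all other libraries, and Hspd1 at 1549, 1183 and 1485 CPM, the lowest of the group in FGF19+MYC and sgTrp53+MYC and the second lowest in Aldafermin+MYC.

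Because both partners belong to 1 complex, the ratio of Hspe1 to Hspd1 counts was compared within libraries, which does not depend on size factors. It can still depend on how reads were counted. Hspe1 lies within the GENCODE span of Hspd1, on the other strand, and ambiguous reads were more frequent in the sgTrp53+MYC libraries. The part of this was not tested, and sgTrp53+MYC tumors and their count table cannot be told apart here either. The log2 ratio was -2.02, -2.13, -1.80, -2.11 and -0.84 in Aldafermin+MYC tumors, -0.51, -2.19, -2.21, -2.25 and -1.93 in FGF19+MYC tumors and -0.80, -2.39, -3.08, -3.21 and -3.09 in sgTrp53+MYC tumors. In livers it was -2.05, -1.90, -2.24, -1.52 and -1.32. Hspe1 counts were thus 21.1% to 39.9% of Hspd1 counts in livers, and 10.8% to 19.1% in the 4 sgTrp53+MYC tumors other than the first, which had 57.3%. With all libraries no pair of groups passed the test: the sgTrp53+MYC mean of -2.51 ± 1.01 (SD, n = 5) stood beside -1.78 ± 0.54, -1.82 ± 0.74 and -1.81 ± 0.38 in Aldafermin+MYC tumors, FGF19+MYC tumors and livers (exact two-sided permutation test, adjusted p = 0.595, 0.603 and 0.595 over 6 comparisons, where the smallest raw p that 5 against 5 libraries allow is 0.00794).

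Leaving out sgTrp53+MYC 1 alone put the sgTrp53+MYC mean 1.16 below that of Aldafermin+MYC tumors and 1.13 below those of FGF19+MYC tumors and of livers, each with all 4 remaining sgTrp53+MYC tumors below every library of the other group (exact two-sided permutation test, adjusted p = 0.0159). In each comparison this was the only 1 of 10 omissions of a single library that passed. It is singled out here after its values were seen, so its p-value is not that of a planned test. Leaving out all 3 libraries high in short transcripts was also chosen after seeing the data. It put the sgTrp53+MYC mean 0.93 below Aldafermin+MYC and 0.80 below FGF19+MYC tumors (exact permutation test, adjusted p = 0.0571 for both). In both, 4 libraries remained against 4, and every sgTrp53+MYC ratio lay below every ratio of the other group. The raw p was then the smallest that 4 against 4 libraries allow. The difference from livers was left at -1.13 (exact permutation test, adjusted p = 0.0476). A lower share of Hspe1 in sgTrp53+MYC tumors therefore rests on whether 1 library is counted. The kinds of tumor also differed in short transcripts, set against the mean of all libraries on the log2 scale. Their median was at -0.48, -0.38 and -0.43 in sgTrp53+MYC 3, 4 and 5. It was at -0.04 to 0.96 in the other tumors and at -0.72 to -0.17 in livers. The part of this in the ratio was not tested. In group-centered values Hspd1 correlated with the CCT subunits at a median r of -0.18 and Hspe1 at 0.73, and with each other at -0.53. Without the 3 libraries these medians were 0.39 and 0.31, and Hspd1 with Hspe1 was at 0.17.

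Copies of the member genes elsewhere in the genome could take reads from them. The tables hold 14 rows named as pseudogenes or related sequences of the members, of which 11 had no read in any library. Hspd1-ps3 had counts equal to 1.48% to 6.59% of those of Hspd1, and its own level is uncertain for the same reason. Adding such rows to their members changed no call.

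The 6 prefoldin subunits, which capture new actin and tubulin chains for CCT, were called higher in 5, 5 and 4 of 6 cases in Aldafermin+MYC, FGF19+MYC and sgTrp53+MYC tumors, with median log2 fold changes of 1.10, 1.07 and 0.73. For the lists in this and the next paragraphs, the share of all genes called lower than liver was 31.9%, 32.9% and 33%, beside the shares called higher given above. Pfdn4 rose most, from 5.14 ± 1.84 CPM in livers (SD, n = 5) to 33.6 ± 9.71, 33.2 ± 10.2 and 36.7 ± 21.9 CPM in these tumors, and Pfdn5 did not pass the test in any kind, at log2 fold changes of -0.46, -0.26 and -0.50. Its highest tumors were again Aldafermin+MYC 5, FGF19+MYC 1 and sgTrp53+MYC 1, at 140.08, 234 and 187 CPM, where the other tumors lay between 35.8 and 72.6 CPM and livers between 73.6 and 169 CPM. Without these 3 libraries Pfdn5 was called lower in all 3 kinds, by 0.80, 1.01 and 1.14 on the log2 scale (edgeR quasi-likelihood test, adjusted p = 0.00465, 0.000855 and 0.000312), and the other prefoldin calls stayed at 5, 5 and 4 higher. Among the phosducin-like cofactors that bind CCT, Pdcl3 was higher by 0.69, 0.56 and 0.79 and Pdcl lower by 0.75, 0.72 and 0.58 on the log2 scale, and Txndc9 was not called, at 0.05, -0.02 and 0.29. The paralogs that resemble CCT subunits but serve the Bardet-Biedl complex of the cilium went different ways, Bbs12 higher by 3.09, 3.08 and 3.81, Bbs10 lower by 1.92, 1.75 and 1.33, and Mkks not called, at -0.20, -0.22 and -0.09. Mkks was called lower in Aldafermin+MYC and FGF19+MYC tumors, by 0.40 and 0.34, once the 3 libraries were left out. All of these are edgeR quasi-likelihood calls.

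Most client genes of CCT were called higher in tumors. Of 12 tubulin and actin genes tested, 10, 10 and 9 were called higher in Aldafermin+MYC, FGF19+MYC and sgTrp53+MYC tumors than in liver, with medians of 1.65, 1.52 and 1.30. Tuba1b, an alpha-tubulin, went from 48.2 ± 14.7 CPM to 664 ± 122, 653 ± 53.9 and 477 ± 64.1 CPM (SD, n = 5), and the gamma-actin gene Actg1 from 118 ± 14.1 CPM to 1005 ± 222, 1019 ± 220 and 817 ± 151 CPM. Tubb2a went the other way and was called lower in FGF19+MYC and sgTrp53+MYC tumors, by 0.91 and 1.21, and without the 3 libraries also in Aldafermin+MYC tumors, by 0.80. The beta-actin gene Actb and Tubb6 were the client genes called between kinds of tumor, Actb 0.88 and 0.82 and Tubb6 0.74 and 0.80 higher in Aldafermin+MYC and FGF19+MYC than in sgTrp53+MYC tumors, but without the 3 libraries Tubb6 did not pass, at 0.63 and 0.64. Of 10 other clients, mostly WD40 repeat proteins, 7 were called higher in each kind of tumor. In sgTrp53+MYC tumors 1 was called lower, a call that was lost without the 3 libraries. The largest changes were in the mitotic regulators Plk1 (6.73, 6.91 and 6.42) and Cdc20 (6.42, 6.42 and 6.28). The tubulin folding cofactors, which take tubulin from CCT, had 2, 1 and 2 of 6 called higher and 0, 0 and 1 lower. The shares called higher were not above those of all genes. Among the cofactors called higher was Arl2, by 2.32, 1.97 and 1.79. Tbce lost its call in Aldafermin+MYC tumors without the 3 libraries, which left 1 of 6.

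Of 14 genes of the cytosolic HSP70 and HSP90 system, which folds proteins before or beside CCT, 12, 12 and 11 were called higher in the 3 kinds of tumor, with medians of 1.13, 1.19 and 1.01. The highest were Bag2, an HSP70 co-chaperone, by 3.58, 3.63 and 3.57, and Hsp90aa1, the inducible HSP90, by 2.80, 2.88 and 2.73, and Dnaja1, an HSP40, was lower by 0.64, 0.42 and 0.57, of which the second lost its call without the 3 libraries, at -0.27. The 8 genes listed as heat shock inducible had 1, 2 and 1 called higher and 3, 3 and 4 lower than in liver. Without the 3 libraries the higher calls were 1, 3 and 1, and the lower calls stayed at 3, 3 and 4. Hsf1, the heat shock factor itself, was higher by 1.57, 1.69 and 1.46, while the small heat shock proteins Hspb8 and Hspb1 were lower by 4.77, 3.85 and 5.26 and by 2.68, 2.54 and 2.25. The sgTrp53+MYC value of Hspb8 was -6.15 without the 3 libraries. Between tumors, 0 and 2 of these 8 genes were called higher in Aldafermin+MYC and in FGF19+MYC than in sgTrp53+MYC. Without the 3 libraries these counts were 0 and 4. For the 14 HSP70 and HSP90 genes they were 1 and 2, and 1 and 3 without the 3 libraries. Of all genes, 17.7% and 15.8% were called in either direction in these comparisons.

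**Figure D5:**
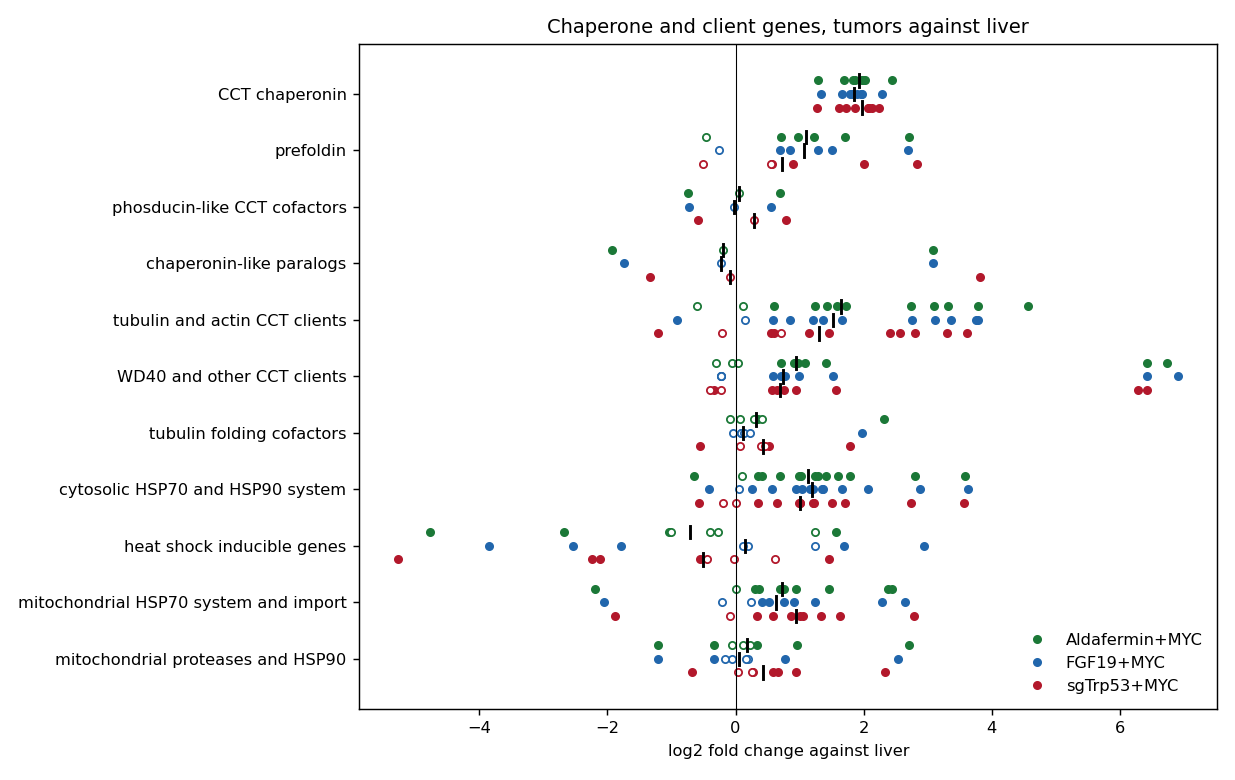
Log2 fold change against liver of the CCT subunits and of 10 lists of related genes in Aldafermin+MYC, FGF19+MYC and sgTrp53+MYC tumors, 1 point per gene, filled where the adjusted p is under 0.05, with black ticks at the list medians. The CCT subunits lie between 1.27 and 2.44, whereas the heat shock inducible genes range from -5.26 to 2.94.

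In mitochondria, the import machinery and the HSP70 system that pass proteins to HSP60 were called higher in 8, 7 and 8 of 10 genes, with medians of 0.72, 0.64 and 0.94. Without the 3 libraries these counts were 6, 7 and 8, as Hspa9 and Dnaja3 lost their calls in Aldafermin+MYC tumors, and Grpel1 was called lower in all 3 kinds, by 0.26, 0.52 and 0.47. Tomm20 and Tomm40 of the outer membrane translocase rose most, by 2.44, 2.65 and 2.79 and by 2.38, 2.28 and 1.64, and Grpel2, a nucleotide exchange factor, fell by 2.20, 2.05 and 1.88 on the log2 scale. Hspa9, the mitochondrial HSP70, was at 725 to 1046 CPM in Aldafermin+MYC, 791 to 1106 CPM in FGF19+MYC and 1109 to 1859 CPM in sgTrp53+MYC tumors, and was called lower in the first and the second than in the third, by 0.63 and 0.60 (edgeR quasi-likelihood test, adjusted p = 0.00955 and 0.0147), as was Trap1, the mitochondrial HSP90, by 0.55 and 0.72. Hspd1 had the same sign without passing the test, whereas Tomm40 was called higher by 0.74 and 0.65. Of 8 mitochondrial protease and HSP90 genes, 3, 2 and 5 were called higher than liver and 2, 2 and 1 lower, with Htra2 the highest at 2.70, 2.54 and 2.33 and Clpx the lowest at -1.22, -1.21 and -0.68. Between tumors, 1 and 2 of these 8 were called lower in Aldafermin+MYC and in FGF19+MYC than in sgTrp53+MYC, and 5 and 4 without the 3 libraries.

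The genes whose pattern over the 20 libraries was most like the mean of the 8 CCT subunits were Wdr12, a ribosome biogenesis factor (Pearson's r = 0.997), Cacybp (0.997), the splicing factor gene Snrpa1 (0.997), Tyms, which encodes thymidylate synthase (0.996), and Gemin6 (0.996). Those most like the mean of Hspd1 and Hspe1 were 2810004N23Rik (0.988), the mitochondrial ribosomal protein gene Mrpl19 (0.986), Mcmdc2 (0.986), the mitochondrial tyrosyl-tRNA synthetase gene Yars2 (0.985) and Gemin6 (0.985). These values are descriptions over 20 libraries and include the step between livers and tumors.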

How the data were processed

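RNA sequencing of 20 libraries was analysed. The authors prepared stranded mRNA libraries, mapped them to mm39 (HISAT2), and obtained gene counts on the RefSeq annotation (htseq-count). The strand setting of the counting is not given in the sources used here. The submitters' processing notes also name bcl2fastq 2.20.0.422. The deposited values are raw counts per gene, in 2 tables with 5 summary lines each, which were left out of library sizes and tests. Replicates are tumors or livers of different mice.

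The members and gene lists were chosen with earlier results of these data known. Counts were fitted with edgeR 4.0.16 (R 4.3.3, limma 3.58.1): at least 1 CPM in at least 5 libraries, TMM size factors, 1 quasi-likelihood model of the 4 groups, 6 contrasts, Benjamini-Hochberg adjustment over 14333 genes and a threshold of 0.05. Intervals are 95%. CPM values use TMM-scaled library sizes, and log2 CPM a prior count of 2. The ratio of Hspe1 to Hspd1 used a prior count of 0.5 on each count and exact two-sided permutation tests. The fitting code was tested on simulated counts with known changes before use. No library was a copy of another (chi-square over degrees of freedom of at least 13.9 within groups). DESeq2 1.42.0, other size factors, filters and models, a replicate block, related rows added, a correction for GC content and length, and each library left out were tried as alternatives.

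Lengths, positions and promoters are from GENCODE M39 on GRCm39, the build of the counts but not their annotation. Of the genes tested, 13847 had a length. Genes named are the 10 members, their related rows (not all are reported here), Myc, Trp53, genes of lists with up to 6 genes tested, the 3 highest and 3 lowest called genes of longer lists in each comparison, Dnaja3 and Grpel1 (chosen after their values were seen), and the 5 genes most correlated with the mean of each chaperonin.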

Additional observations from a re-analysis of the deposited data

Results flagged for a closer look

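In 7 of 44 sets of 5 libraries, 1 library lay so far from the next that the gap exceeded Dixon's critical value of 0.71 of the whole range. Chance alone gives about 1 in 20 such sets on average. The sets share libraries and are not independent, so their number cannot be weighed against this share. Hspe1 stood out in all 3 tumor groups, at 867 CPM in Aldafermin+MYC 5, 833 CPM in FGF19+MYC 1 and 851 CPM in sgTrp53+MYC 1. The log2 ratio of Hspe1 to Hspd1 stood out in Aldafermin+MYC 5 at -0.84 and in FGF19+MYC 1 at -0.51. Cct4 stood out in sgTrp53+MYC 1 at 593 CPM. Those 6 values belong to the 3 libraries in which short transcripts as a whole were high. The canonical transcript of Cct4, 4735 bases, is however the longest of the members. The part of transcript length in these values was not tested. Cct5 stood out in Liver 4 at 250.01 CPM, where the other livers were at 192 to 202 CPM. Liver 4 also had the highest summed proliferation marker level of the livers, 28.7 CPM, and short transcripts at 0.25 above the mean of its group, and the part of either was not tested.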

How the results depend on the processing

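Against liver, all 630 member results under the alternatives kept their direction and side of the threshold, and 10 of 10 members were called in each comparison whichever library was left out. Between kinds of tumor, 565 of the member results did so, 64 changed sign around 0 without being called, and 1 became a call; the cause was not tested. That call was Hspd1 in Aldafermin+MYC against sgTrp53+MYC without the 3 libraries high in short transcripts, an alternative chosen after seeing the data, which brought the members called from 0 to 1.

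For Aldafermin+MYC against FGF19+MYC, Cct2 was at -0.011 with RLE size factors and with DESeq2. With only the 2 groups compared, Cct2 was at -0.015 and Cct8 at -0.0023. Without the 3 libraries Cct2, Cct5, Cct6a, Cct8 and Hspd1 were at -0.034, -0.00058, -0.017, -0.092 and -0.048. For Aldafermin+MYC against sgTrp53+MYC, Cct4 was at -0.045 with RLE size factors and with DESeq2, at -0.047 with only the 2 groups compared, at -0.014 with library totals and at -0.088 without a filter. With a GC and length correction Cct5 was at 0.051 and Cct8 at 0.19. For FGF19+MYC against sgTrp53+MYC, Cct3 and Cct4 were at -0.056 and -0.041 without a filter, and Cct8 and Hspe1 at 0.13 and -0.0044 with the GC and length correction. The log2 ratio of Hspe1 to Hspd1 was -0.21 for Aldafermin+MYC and -1.13 for sgTrp53+MYC against Liver without the 3 libraries, and 0.011 for FGF19+MYC against Liver with related rows added.

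With each library left out in turn, Aldafermin+MYC against FGF19+MYC ranged from -0.14 to 0.077 (Tcp1), -0.056 to 0.089 (Cct2), -0.00072 to 0.23 (Cct3), -0.24 to 0.067 (Cct4), -0.11 to 0.17 (Cct5), -0.055 to 0.21 (Cct6a), -0.035 to 0.11 (Cct7), -0.046 to 0.11 (Cct8), -0.044 to 0.12 (Hspd1) and -0.21 to 0.39 (Hspe1). Aldafermin+MYC against sgTrp53+MYC ranged from -0.22 to 0.24 (Cct4), -0.22 to 0.10 (Cct5), -0.33 to 0.039 (Cct6a), -0.15 to 0.041 (Cct8) and -0.019 to 0.77 (Hspe1). FGF19+MYC against sgTrp53+MYC ranged from -0.029 to 0.17 (Cct3), -0.054 to 0.29 (Cct4), -0.20 to 0.052 (Cct5), -0.11 to 0.0096 (Cct8) and -0.069 to 0.67 (Hspe1). The ratio differences ranged from -0.20 to 0.36, 0.50 to 1.16, 0.37 to 1.13, -0.21 to 0.15, -0.34 to 0.11 and -1.13 to -0.53 for Aldafermin+MYC against FGF19+MYC, both against sgTrp53+MYC, both against Liver and sgTrp53+MYC against Liver.

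Over all genes, 2534 were called between Aldafermin+MYC and sgTrp53+MYC and 1076 with only these groups, and 2258 and 1342 between FGF19+MYC and sgTrp53+MYC. Between Aldafermin+MYC and FGF19+MYC, 0 were called, 2 with RLE size factors, 3 with the GC and length correction, 29 without Aldafermin+MYC replicate 4 and 6 without Aldafermin+MYC replicate 2. The share of calls that were higher in Aldafermin+MYC than in sgTrp53+MYC was 57.4%, and 48.5% with RLE size factors, 43.6% without a filter, 47.0% with DESeq2 and 44.4% without the 3 libraries; in FGF19+MYC it was 50.6%, and 37.9% without a filter. A replicate block changed no member call (0 of 10 between tumors, 10 of 10 against liver) and gave 2267 and 2080 genes against sgTrp53+MYC. The replicate numbers give no pairing: at most 2 of 5 same-numbered pairs per comparison correlated above 0.1.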
